A study of Mus musculus with 16 samples.

Results

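Cytosolic ribosomal protein genes were taken from the table of the series by name: protein-coding rows whose symbol starts with Rpl or Rps and a digit, together with Rpsa and Rplp0 to Rplp2, and without the Rps6k kinases. The rule found 94 of 25719 genes, 57 named for the large subunit and 37 for the small one, and 7 of the 94 carry pseudogene-type names. RNA came from whole livers of 16 male mice, aged 8 to 12 weeks at feeding per the study's methods and sequenced after 3 weeks of diet. WT C57BL6J mice received a normal chow diet (NCD, n = 4) or the steatosis-steatohepatitis diet (SSD, n = 5), and Klrk1-/- mice received NCD (n = 4) or SSD (n = 3). The SSD is rich in animal fat, fructose and cholesterol. Klrk1 encodes NKG2D, an activating receptor of lymphocytes, and is deleted in the germline, so that every cell of these mice lacks it. The lines were kept as breeding colonies, and whether WT and Klrk1-/- mice were littermates is not given in the sources used here. Mice are numbered as in the labels, 1, 2, 3 and 5 for WT on NCD.

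The cytosolic ribosome is built from a small and a large subunit, and nearly every ribosomal protein is present once in each ribosome, the acidic stalk proteins being the exception. Their mRNAs are among the most abundant of a cell and many begin with a C followed by a run of pyrimidines, the terminal oligopyrimidine (TOP) tract, through which mTOR signaling and the binding protein Larp1 control their translation and stability. In hepatocytes, which export large amounts of plasma protein, ribosome content is known to follow feeding state. RNA levels as measured here do not report translation.

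The first bases of the transcripts are shown because this control element, where present, lies there. Of the 94 genes, 67 had an entry among the RefSeq promoter windows (GRCm38.p6), 300 bases each. A run of at least 5 pyrimidines that opens with C exactly at the annotated start was found in 14 of the 67 genes (20.9%), against 3.01% of the 27025 genes of that collection and 0 of 69 genes for mitochondrial ribosomal proteins. Allowing the run to begin within 5 bases of the annotated start gave 46.3% of the ribosomal protein genes and 21.2% of all genes. It gave 24.6% of the genes for mitochondrial ribosomal proteins. Below are 10 bases before and 20 from the start, 5′ to 3′, with the tract in capitals where there is one.
Rps6: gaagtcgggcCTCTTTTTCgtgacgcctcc
Rps18: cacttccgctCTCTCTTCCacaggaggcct
Rpl35: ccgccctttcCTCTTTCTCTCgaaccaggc
Rpl38: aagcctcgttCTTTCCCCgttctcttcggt
Rps27: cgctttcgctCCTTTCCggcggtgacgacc
Rps27rt: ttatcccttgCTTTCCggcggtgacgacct
Rplp0: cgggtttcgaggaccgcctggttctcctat
Rpl22l1: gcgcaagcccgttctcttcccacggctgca
Rpl7l1: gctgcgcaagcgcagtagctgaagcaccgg
Rps23rg1: gcagagagtctttctctcaccccagataaa

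The windows with a tract lie on the minus strand at chr4:86857348-86857377 (Rps6), chr17:33955646-33955675 (Rps18), chr2:39005112-39005141 (Rpl35), chr3:90213629-90213658 (Rps27) and chr9:114982720-114982749 (Rps27rt), and on the plus strand at chr11:114668570-114668599 (Rpl38). Those without one lie at chr5:115559457-115559486 (Rplp0, plus), chr3:28805498-28805527 (Rpl22l1, plus), chr17:46782637-46782666 (Rpl7l1, minus) and chr8:3567988-3568017 (Rps23rg1, plus). Rps27rt, a retroposed copy of Rps27, shares the bases that follow the tract with its parent. The sequence CCGGAAG, the core to which ETS factors such as Gabpa bind, was present on either strand in 38.8% of the 67 ribosomal protein genes with an entry, in 37.7% of the genes for mitochondrial ribosomal proteins and in 9.93% of all genes. ATGGCGG, part of the Yy1 motif, was present in 16.4%, against 18.8% of the genes for mitochondrial ribosomal proteins and 4.69% of all. The TATA box letters TATAAA were present in 10.4%, against 7.25% and 15.7%. Matches of one motif can overlap those of another, which was not counted, and a match describes letters only.

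Between 19892025 and 28936707 reads fell on genes per mouse. Klrk1 lay between 20.1 and 71.1 normalized counts in WT mice and between 0.966 and 8.71 in Klrk1-/- mice, in the order the labels give. Summed over 6 hepatocyte markers, the level was 2268443 to 2565342 in WT mice on NCD, 1485355 to 1888785 in WT mice on SSD, 2168321 to 2890415 in Klrk1-/- mice on NCD and 1988139 to 2148254 in Klrk1-/- mice on SSD. WT mouse 1 on SSD stood apart, with a sum of 25093 over 7 stellate cell and fibroblast markers, against 5024 to 10269 in the other WT mice on SSD and 4481 to 5814 in WT mice on NCD. Kupffer cell and macrophage markers (8 genes) summed to 4605 to 4870 in WT mice on NCD and 6621 to 13966 on SSD, and proliferation markers (5 genes) to 509.8 to 592.1 and 773.2 to 2007, both without overlap. In Klrk1-/- mice the macrophage sums were 3972 to 4827 on NCD and 4873 to 6252 on SSD, those of stellate cell and fibroblast markers 4215 to 6036 and 6358 to 7787, and those of 9 T and NK cell markers 171.7 to 228.8 and 121.7 to 136.3, each without overlap. B cell and plasma cell markers (6 genes) summed to 1708 to 2137 in Klrk1-/- mice on NCD and 272.2 to 314.6 on SSD, against 505.3 to 1247 and 227.3 to 360.7 in WT mice. The part of these cell types in the results below was not tested. In whole liver, fewer cells of a type and less RNA per cell cannot be told apart.

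All but 7 of the 94 genes reached a mean of 10 normalized counts and were tested, and 80 had a mean over 1000. The 7 below that mean were Rpl10l, Rpl36-ps4 and Rpl9-ps1 with no read in any mouse, Rps18-ps6, Rpl39l, Rpl3l and Rpl36a-ps1. Rpl3l is the striated muscle form of Rpl3 and Rpl10l and Rpl39l are forms of the testis, so that liver RNA held almost none of the tissue-specific variants. Their floor is 3 reads, or 1.99 to 3.91 normalized counts per mouse.

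Per kilobase of gene model, Rpl13a was highest, with 18232 normalized counts as the mean over 16 mice, followed by Rplp1, Rps29, Rps15 and Rps18. The median of the 87 tested genes was 5273 per kilobase, and 48 of them were among the 500 rows of the whole table with the highest level per kilobase. The genes are short, with a median model of 711 bases against 1790 for all genes with a mean of at least 10 over the 16 mice. The lowest level per kilobase, 47.88, belonged to Rps23rg1, which arose by retroposition of Rps23, encodes a membrane protein and is no part of the ribosome. Rps19bp1, a binding partner of Rps19 and likewise no structural protein, had a mean of 357.7 normalized counts. Retroposed or pseudogene-type copies stayed low, with means of 36.46 for Rps27rt, 104.9 for Rpl10-ps3, 68.7 for Rpl9-ps6 and 29.70 for Rps18-ps5. How reads that match several copies were counted is not given in the sources used here, and the values of these copies are therefore uncertain.

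**Figure D1:**
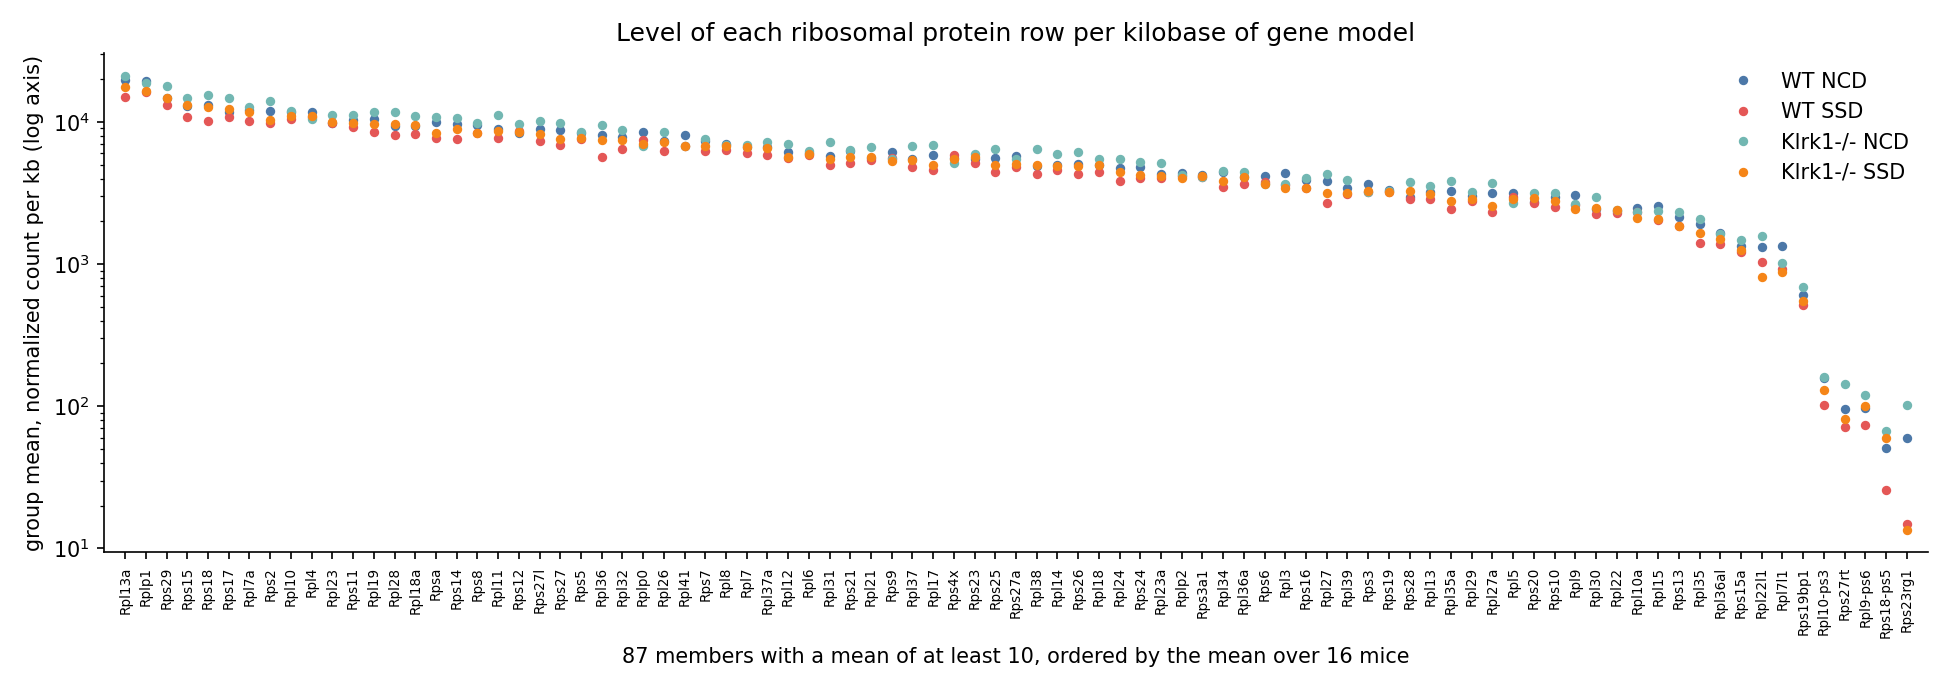
Mean normalized count per kilobase of gene model (log axis) for each of the 87 tested genes in each of the 4 groups, one point per group mean, ordered by the mean over 16 mice. The quartiles are 3012 and 8129, around the median of 5273, and Rps23rg1 is at the right end with 47.88.

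As a share of all reads on genes, the 94 rows took 1.404% ± 0.1205 (SD, n = 4) in WT mice on NCD and 1.558% ± 0.2187 (n = 5) in WT mice on SSD. In Klrk1-/- mice the share was 1.486% ± 0.07632 (n = 4) on NCD and 1.538% ± 0.1258 (n = 3) on SSD. The single mice were at 1.533%, 1.242%, 1.414% and 1.428% in WT on NCD, at 1.846%, 1.532%, 1.260%, 1.672% and 1.481% in WT on SSD, at 1.558%, 1.546%, 1.432% and 1.410% in Klrk1-/- on NCD and at 1.528%, 1.669% and 1.418% in Klrk1-/- on SSD. All 4 groups overlapped. The highest share was that of WT mouse 1 on SSD, and without it the mean of its group was 1.486%. The widest 95% Wilson interval of a share was 0.011 percentage points, which covers counting error only.

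In the unit in which the table was deposited, the order of the diets by group mean was the other way round in each genotype. In WT mice the diets overlapped. The summed normalized counts were 310392 to 429048 in WT mice on NCD and 269377 to 354908 on SSD, and 388336 to 401045 in Klrk1-/- mice on NCD against 309909 to 378281 on SSD. Normalized counts of whole columns did not sum to the same total: they ranged from 25001200 to 27985200 on NCD and from 19222000 to 22666500 on SSD. The 20 rows with the most reads outside the ribosomal proteins took 27.64% to 31.65% of reads in WT mice on NCD, 23.82% to 26.21% in WT mice on SSD, 32.23% to 37.26% in Klrk1-/- mice on NCD and 26.26% to 28.0% in Klrk1-/- mice on SSD. When these 20 rows were left out of the total, the share of ribosomal proteins was 2.003%, 2.079%, 2.258% and 2.109% in the same order. The ratio of large to small subunit reads lay between 1.31 and 1.397 in every mouse.

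**Figure D2:**
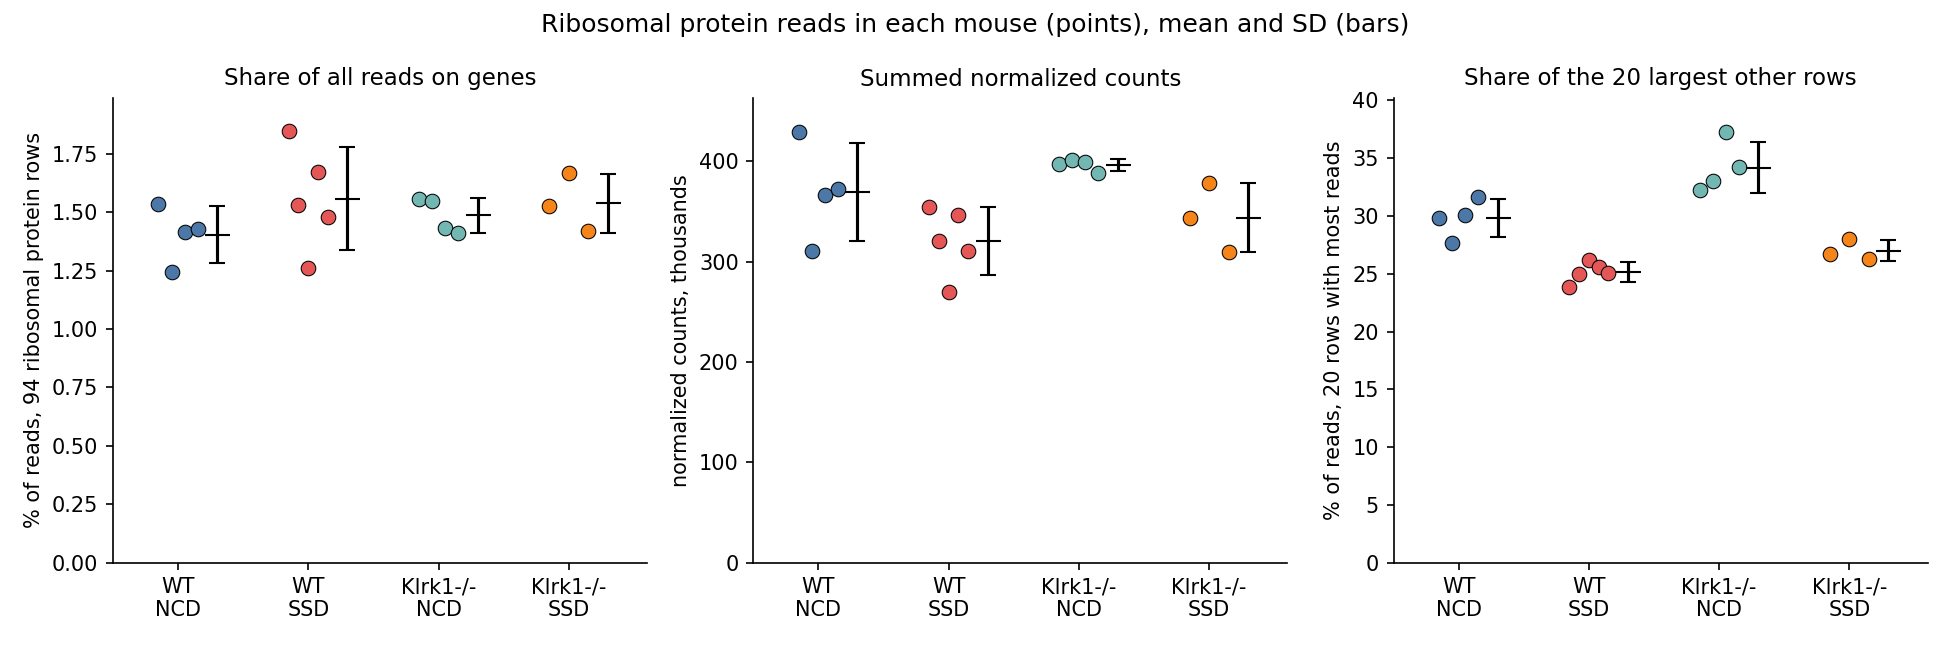
Reads on the 94 ribosomal protein rows as % of reads on genes (left), their summed normalized counts (middle, axis in units of 1000) and the % of reads on the 20 largest other rows (right), with one point per mouse and bars for mean and SD. The share overlaps between the 4 groups, from 1.242% to 1.846%, while the 20 largest rows take fewer reads on SSD than on NCD in both genotypes.

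The first comparison asked how 3 weeks of SSD feeding changed these RNAs in WT mice. In normalized counts, the median log2 fold change of the 87 tested genes was -0.202, with 85 of 87 below 0. Over all 13091 genes tested the median was -0.002. By limma, with p-values adjusted over all genes (Benjamini-Hochberg), 10 fell and 0 rose (called at an adjusted p under 0.05), which is 11.5% of 87 against a background of 17.6% of all genes called lower and 17.3% called higher. DESeq2 on recovered reads called 17 lower and 0 higher, against 18.6% and 19.1% of all genes. The 10 were Rps23rg1, Rpl10-ps3, Rpl7l1, Rpl36, Rpl27, Rpl35, Rpl27a, Rpl35a, Rpsa and Rps27, 7 of the large subunit and 3 of the small one by name. The medians of both subunits were alike, -0.202 for the large and -0.214 for the small one. For comparison, the 78 genes for mitochondrial ribosomal proteins had a median of -0.323 and 41 of them fell, whereas on equal library totals their median was 0.022, with 4 called higher and 3 lower.

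The direction of these changes depended on the scale. With every library brought to the same total, the median of the ribosomal protein genes was 0.143 while that of all genes was 0.344, so that they stood 0.201 below the median gene on that scale and 0.200 on the authors' scale. Both scales differ only by a factor per library, which moves all genes nearly alike, so that these distances are not independent. On equal totals 9 rose (Rpl10a, Rpl21, Rpl23, Rpl29, Rpl6, Rpl8, Rps28, Rps3a1 and Rps4x) and Rps23rg1 fell, against 48.1% of all genes called higher and 5.46% called lower. After quantile normalization the median was 0.015 against -0.011 over all genes, 0.026 above it, with 1 gene called higher and 5 lower, against 15.5% of all genes called higher and 15.9% lower. A fold change over 1.5 together with the adjusted p left Rps23rg1 and Rpl10-ps3, against 19.3% of all genes. Both diet groups did not overlap for 4 genes, Rpl34, Rpl7l1, Rps23rg1 and Rpsa, each lower on SSD, against 15.5% of all genes lower and 13.5% higher. On equal totals this direction turned, with 4 genes higher and 1 lower on SSD without overlap, against 37.8% and 4.3% of all genes. The number that fell moved with single mice: it was 3, 27, 4 and 5 without WT mice 1, 2, 3 and 5 on NCD, 16 without WT mouse 1 on SSD and 4 without WT mouse 3 on SSD, while 27.5% to 34.2% of all genes were called in either direction without any one mouse. The median was -0.124 without WT mouse 1 on NCD and -0.298 without WT mouse 2 on NCD.

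Rps23rg1 had 63.9, 75.5, 75.6 and 55.2 normalized counts in WT mice on NCD and 33.9, 4.22, 14.3, 26.6 and 4.90 on SSD. Every mouse on SSD was below every mouse on NCD, and the level fell by 2.33 on the log2 scale of the normalized count + 1 (SE 0.52, adjusted p = 0.00542 by limma). This call held on every scale tried and without any one mouse. Of this gene (chr8:3617990-3634939 in GRCm39, plus strand), the current GENCODE annotation places the pseudogene Rps23-ps2 and the noncoding Gm64176 on the opposite strand, and whether counting used the strand is not given in the sources used here. Rpl7l1, a relative of Rpl7 that takes part in the making of the large subunit, had 1992, 1644, 1552 and 1560 normalized counts on NCD and 1157, 1194, 1208, 1047 and 1175 on SSD. The groups were apart by 344 counts, and the level fell by 0.54 (SE 0.09, adjusted p = 0.00103 by limma), held without any one mouse but not on equal totals (-0.19, adjusted p = 0.0698).

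Rpsa, a small subunit protein that also occurs as a laminin receptor, was between 9047 and 11638 in WT mice on NCD and between 6731 and 8851 on SSD. It fell by 0.36 (SE 0.11, adjusted p = 0.0218 by limma), without overlap, and on equal totals the difference was -0.02. Its call was lost without WT mouse 1 or 3 on NCD or mouse 3 on SSD. Rpl36 fell by 0.50 (adjusted p = 0.0293) and Rpl27 by 0.48 (adjusted p = 0.0179), both proteins of the large subunit, and in both the diet groups overlapped. Leaving out WT mouse 1 on NCD ended both calls, and mouse 3 or 5 on NCD or mouse 3 on SSD ended that of Rpl36. Rpl10-ps3 had 82.6 to 156.7 normalized counts on NCD and 55.8 to 92.9 on SSD (log2 fold change -0.60, adjusted p = 0.0427), and its call was lost without WT mouse 1, 3 or 5 on NCD or mouse 1 or 3 on SSD.

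**Figure D3:**
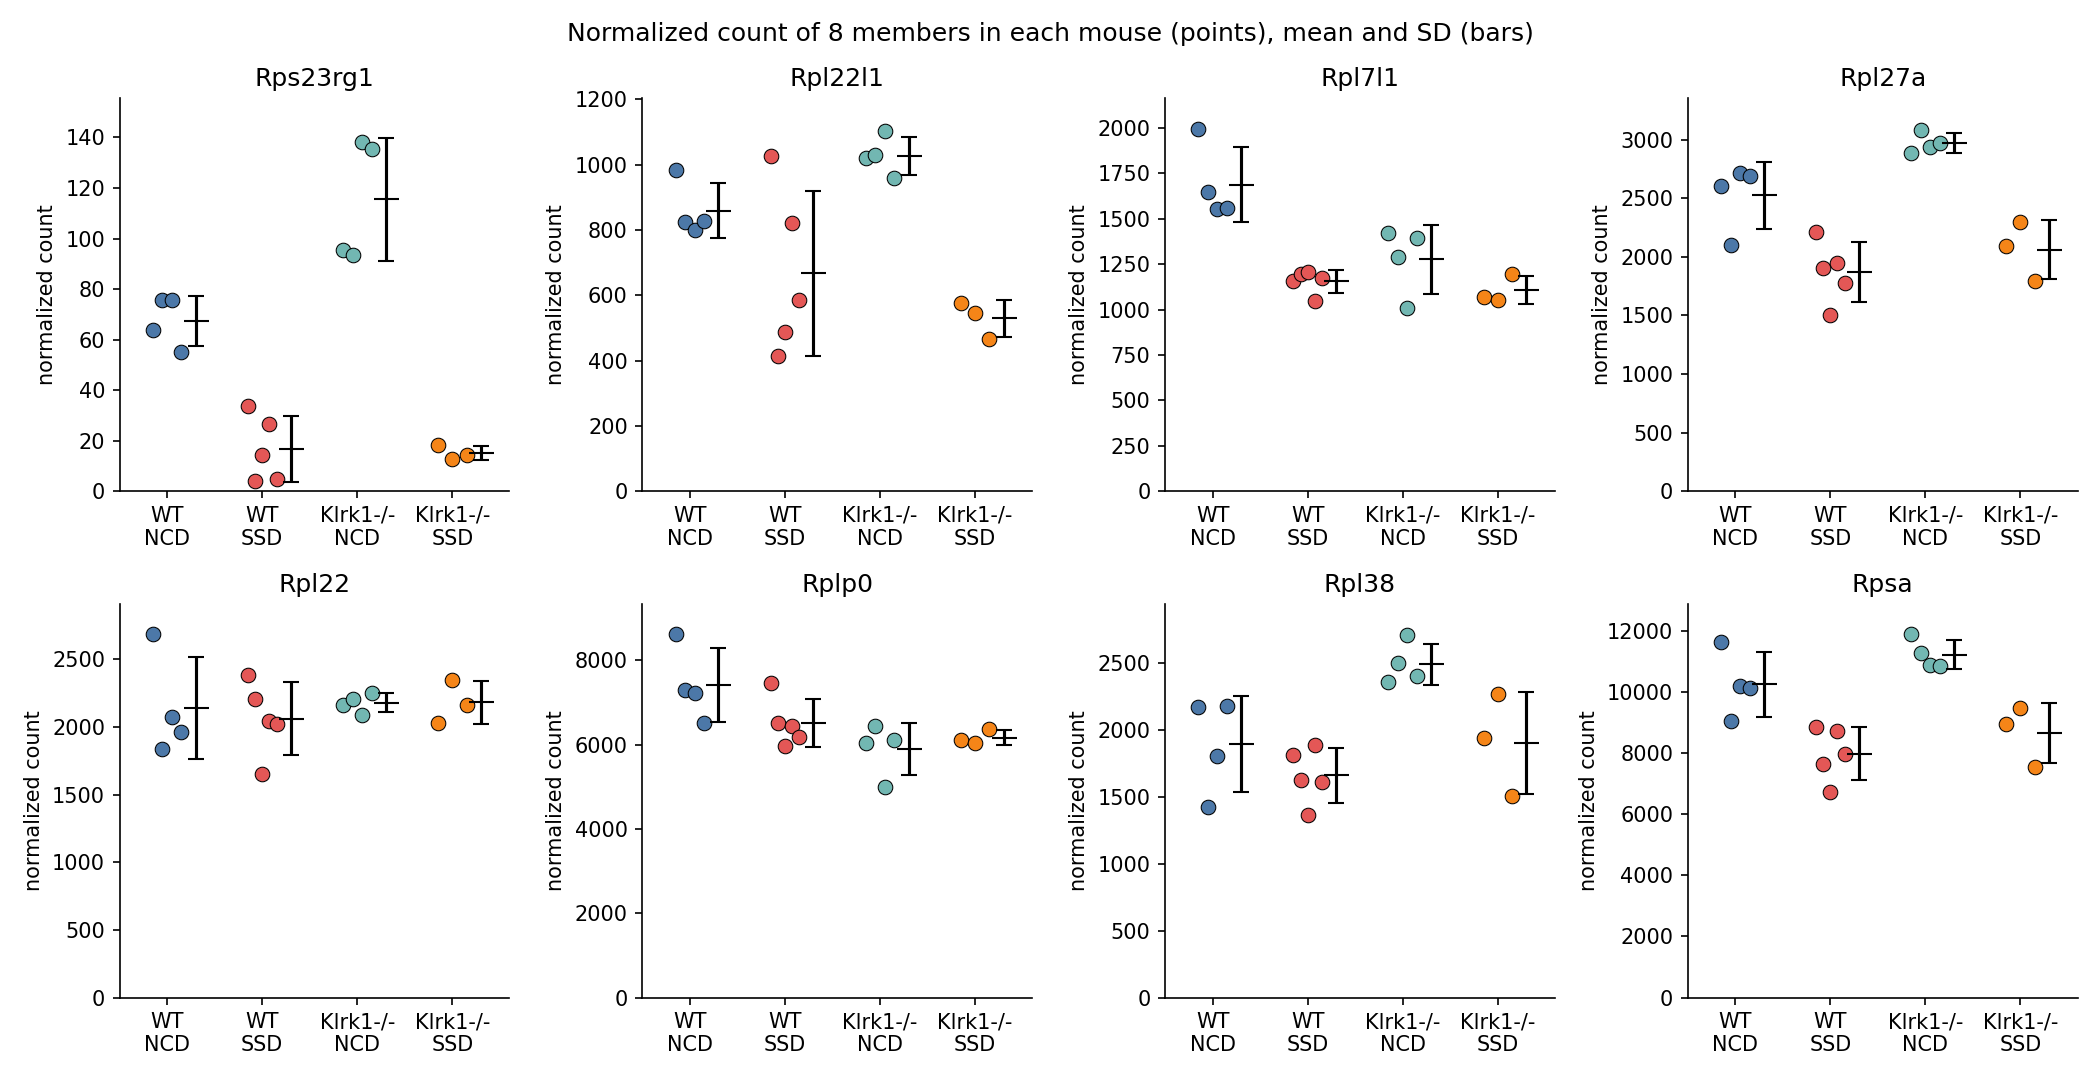
Normalized counts of 8 ribosomal protein genes in each mouse (points), by group, with bars for mean and SD and each axis from 0. Rps23rg1 is lower on SSD than on NCD in both genotypes, Rpl22l1 spreads from 414.0 to 1026 in WT mice on SSD, and Rpl22 overlaps between all 4 groups.

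In Klrk1-/- mice the same question gave a median of -0.227 over the 87 genes, with 79 below 0, against -0.002 over all genes. Here 27 fell and 0 rose, which is 31.0% of 87 against a background of 16% of all genes called lower and 13.4% called higher. By name, 16 of the 27 belong to the large and 11 to the small subunit, and the 11 include Rps23rg1 and Rps19bp1, which are no structural proteins of the ribosome. The groups did not overlap for 36 genes, each lower on SSD, against 19.7% of all genes lower and 17.9% higher. On equal totals the groups did not overlap for 17 genes, 13 higher and 4 lower on SSD, against 41.5% and 6.74% of all genes. After quantile normalization the median was -0.102 against 0.016 over all genes, and 0 genes were called higher and 11 lower, against 14.6% and 14% of all genes. Rps23rg1, Rpl22l1 and Rps27rt passed the fold limit of 1.5 as well, against 13.1% of all genes. Genes for mitochondrial ribosomal proteins had a median of -0.224, with 29 of 78 called lower, and on equal totals a median of 0.032, with 5 called higher and 4 lower. On equal totals the median of the ribosomal protein genes was 0.03 and that of all genes 0.254, a distance of 0.224 against 0.225 on the scale of the authors. There, 8 rose (Rpl22, Rpl41, Rpl5, Rpl8, Rplp0, Rps3, Rps3a1 and Rps4x) and 3 fell (Rps23rg1, Rpl22l1 and Rpl27a), against 37.5% and 6.24% of all genes. The number called lower was 16 and 17 without Klrk1-/- mouse 2 or 3 on NCD, and 10, 49 and 8 without mouse 1, 2 or 3 on SSD, while 18.6% to 28.4% of all genes were called in either direction without any one mouse. The mitochondrially encoded genes took 11.87% to 16.83% of reads in these mice on NCD and 7.661% to 9.058% on SSD, without overlap, and their part in these results was not tested. The median was -0.306 without mouse 2 and -0.15 without mouse 3 on SSD.

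Rpl22l1, the paralog that can take the place of Rpl22 in the large subunit, had 1021, 1029, 1102 and 960.7 normalized counts in Klrk1-/- mice on NCD and 576.6, 547.7 and 466.3 on SSD. It fell by 0.96 (SE 0.10, adjusted p = 2.43e-05 by limma), and by 0.70 on equal totals, and the call held without any one mouse. In WT mice the gene had 985.3, 825.6, 800.3 and 827.6 on NCD and 1026, 414.0, 488.2, 821.7 and 586.2 on SSD, a difference of -0.44 that did not pass the test (adjusted p = 0.142). The highest value of the WT mice on SSD was that of mouse 1. Its parent Rpl22 was between 1653 and 2691 in all 16 mice, with log2 fold changes of -0.05 in WT and 0.00 in Klrk1-/- mice (adjusted p = 0.797 and 0.996 by limma).

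Rps23rg1 in Klrk1-/- mice was at 95.3, 93.3, 138.0 and 135.3 on NCD and 18.4, 12.8 and 14.6 on SSD, and fell by 2.83 (SE 0.21, adjusted p = 3.01e-06 by limma), which held without any one mouse and on every scale tried. Rpl27a, a large subunit protein, had 2886, 3086, 2936 and 2972 on NCD and 2091, 2300 and 1796 on SSD, without overlap. It fell by 0.53 (SE 0.09, adjusted p = 0.00116) and by 0.28 on equal totals (adjusted p = 0.0291), and was among the few that fell on both scales. Rpl35a fell by 0.48 (adjusted p = 0.00336), which on equal totals was -0.23 (adjusted p = 0.0698). Rps27rt had 41.1 to 73.4 on NCD and 24.0 to 42.6 on SSD (log2 fold change -0.80, adjusted p = 0.0428), with overlap, and its call was lost without Klrk1-/- mouse 3 or 4 on NCD or mouse 1 or 3 on SSD, and by edgeR. The smallest p that an exact permutation test of a single gene can give is 0.00794 in WT mice and 0.0286 in Klrk1-/- mice (two-sided). Rpl7l1 and Rps23rg1, respectively, reached it, which does not set them apart. It can be reached only where the groups do not overlap, as for 4 of the 87 genes in WT mice and 36 in Klrk1-/- mice. Of all genes, 15.5% were lower and 13.5% higher without overlap in WT mice, and 19.7% and 17.9% in Klrk1-/- mice.

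Of the 10 genes that fell in WT mice and the 27 in Klrk1-/- mice, 8 were shared, 80.0% of the first and 29.6% of the second list. The diet effect did not differ detectably between genotypes: in the interaction term, fitted over all 4 groups, the median was -0.001 and 0 of 87 genes passed, against 0.88% of all genes. At an unadjusted p under 0.05 there was 1 of 87, Rpl7l1 (0.34, adjusted p = 0.26), against 2256 of all 13068 genes. At an adjusted p under 0.05, edgeR and DESeq2 on recovered reads also called 0, against 0.689% and 3.52% of all genes. The median of the interaction moved with the scale. On equal totals it was -0.089, against -0.088 over all genes. After quantile normalization it was -0.109, with 68 of 87 below 0, against 0.024 over all genes. Both scales called 0 of 87, against 0.825% and 0.75% of all genes. The larger number called in Klrk1-/- mice is thus not shown to be a larger effect. In 1 model over 4 groups the order turned, with more of these genes called for diet in WT than in Klrk1-/- mice. That model called 41.1% of all genes for diet in WT and 24% in Klrk1-/- mice.

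**Figure D4:**
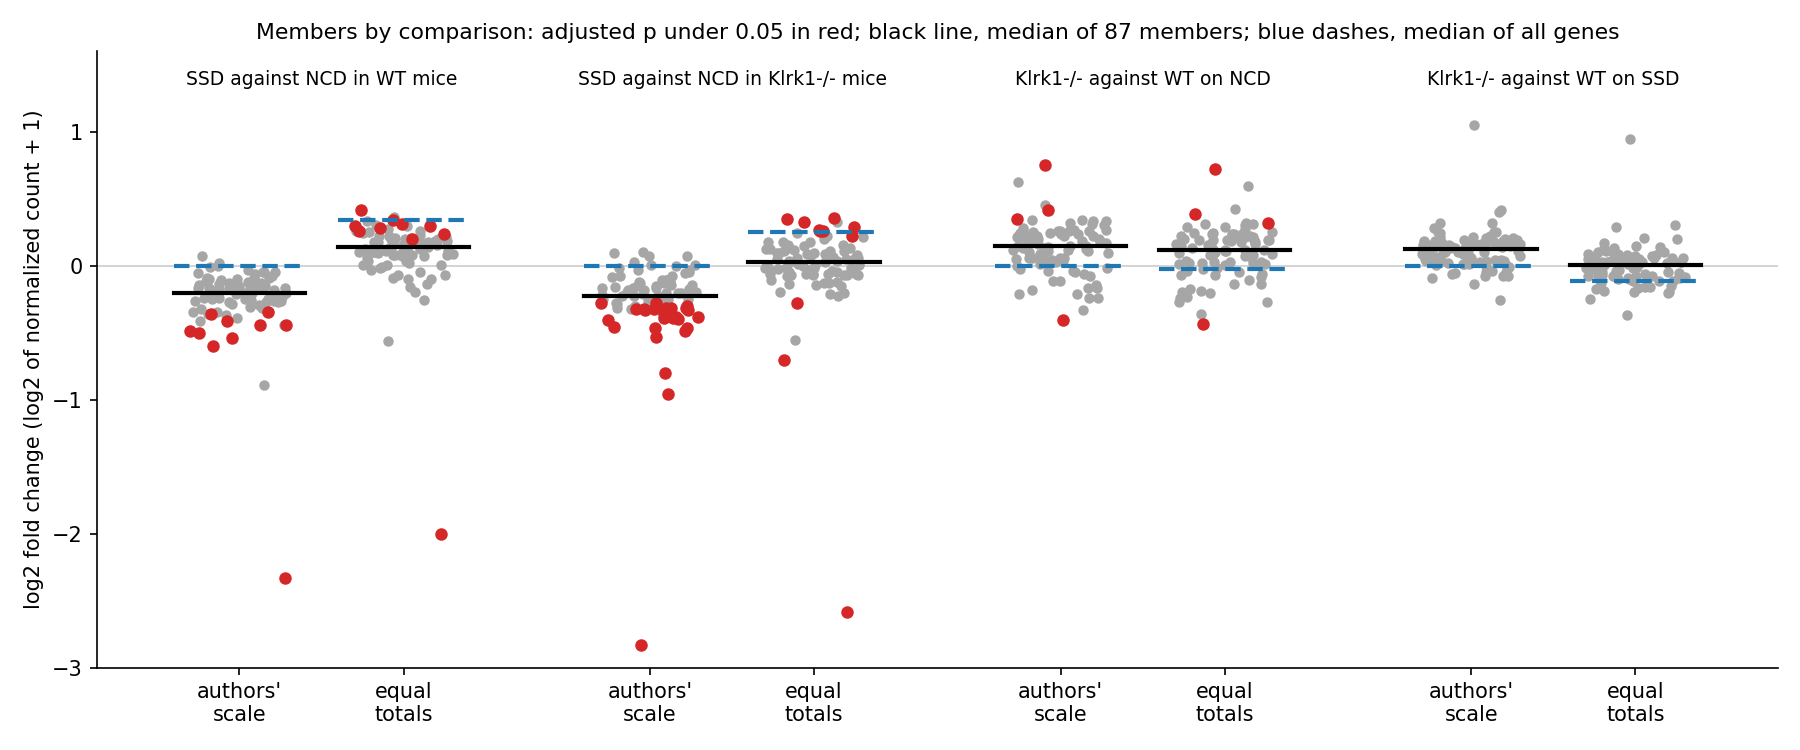
Log2 fold change of each of the 87 tested genes (points, red where the adjusted p was under 0.05) in the 4 comparisons, on the authors' scale and with equal library totals, with black lines for the median of these genes and blue dashes for the median of all genes tested. In both diet comparisons the black line moves from below 0 (-0.202 and -0.227) to above it (0.143 and 0.03) and stays below the blue one.

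Klrk1-/- and WT mice were also compared on SSD, a genotype contrast that does not by itself measure the response to the diet. The median of the 87 genes was 0.122, with 74 above 0, against -0.001 over all genes, and on equal totals it was 0.008 against -0.116. After quantile normalization it was 0.043, with 52 above 0 and 35 below, against 0.027 over all genes, so that the distance to all genes depended on the scale. No ribosomal protein gene was called by limma (0 of 87, against 1.22% of all genes called higher and 1.68% lower, and 2.13% with a fold change over 1.5). On recovered reads edgeR and DESeq2 also called 0, against 2.37% and 9.3% of all genes in either direction. At an unadjusted p under 0.05 there were 3 of 87, against 2999 of all 13116 genes. These 3 were Rpl36 (0.40), Rps15 (0.29) and Rps18-ps5 (1.05, adjusted p = 0.149). Groups overlapped for all 87 genes, against 9.19% of all genes without overlap higher and 8.74% lower. The median was 0.154 without WT mouse 1 on SSD, 0.057 without WT mouse 3, 0.031 without Klrk1-/- mouse 2 and 0.216 without Klrk1-/- mouse 3, and the count was 0 without any one mouse, against 0.342% to 5.49% of all genes.

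On NCD, without the diet, the median was 0.147 in Klrk1-/- against WT mice, with 68 of 87 above 0, against 0.002 over all genes. Rps23rg1, Rpl38 and Rps28 were higher in Klrk1-/- mice and Rpl7l1 was lower, 3.45% and 1.15% of the 87 against a background of 6.41% of all genes called higher and 6.66% lower. Rps23rg1 also passed the fold limit, against 5.79% of all genes. The groups did not overlap for 16 genes that were higher and 2 that were lower (Rpl7l1 and Rplp0), against 9.54% and 9.79% of all genes. The mitochondrially encoded genes took 7.772% to 11.56% of reads in WT and 11.87% to 16.83% in Klrk1-/- mice on NCD, and their part in these results was not tested. On equal totals the median was 0.12, against -0.025 over all genes, and the number of calls was 3 and 1 as well, against 4.39% of all genes called higher and 6.3% lower. Quantile normalization gave 8 genes called higher and 1 lower, against 7.01% and 6.8% of all genes, and DESeq2 on recovered reads gave 7 and 2, against 8.35% and 9.06%. The count of 4 was 1 without WT mouse 2 or 3 on NCD, 11 without WT mouse 5, 1 without Klrk1-/- mouse 2, 0 without Klrk1-/- mouse 3 and 2 without Klrk1-/- mouse 4, while 5.59% to 17.1% of all genes were called without any one mouse. The median was 0.049 without WT mouse 2 and 0.234 without WT mouse 1.

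Rps23rg1 rose by 0.75 (SE 0.18, adjusted p = 0.019 by limma), with every Klrk1-/- mouse on NCD above every WT mouse on NCD, and the call was lost without Klrk1-/- mouse 3 and in a model over all 4 groups. Rpl38, a large subunit protein known for its part in the translation of Hox mRNAs, had 2170, 1422, 1803 and 2180 normalized counts in WT and 2356, 2500, 2707 and 2401 in Klrk1-/- mice (0.41, SE 0.13, adjusted p = 0.0469). Rps28, a small subunit protein, had 1794, 1396, 1646 and 1808 in WT and 1909, 2109, 2319 and 2098 in Klrk1-/- mice (0.35, SE 0.10, adjusted p = 0.0397). Neither gene overlapped between the genotypes. Rpl7l1 fell by 0.41 (SE 0.12, adjusted p = 0.044), with 1552 to 1992 normalized counts in WT and 1006 to 1421 in Klrk1-/- mice. The calls of Rpl38, Rps28 and Rpl7l1 were each lost without WT mouse 2 or 3 or Klrk1-/- mouse 2 or 3, and also without Klrk1-/- mouse 1 or 4 for Rpl38, Klrk1-/- mouse 4 for Rps28 and WT mouse 1 for Rpl7l1. Rpl38 was also not called by edgeR (adjusted p = 0.0512) or in a model over all 4 groups (adjusted p = 0.0534).

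The stalk of the large subunit, which recruits elongation factors, is formed by Rplp0, Rplp1 and Rplp2. Rplp0 had 8625, 7292, 7240 and 6528 normalized counts in WT mice on NCD and 6046, 6439, 5001 and 6115 in Klrk1-/- mice on NCD. Every Klrk1-/- mouse was below every WT mouse, with a difference of -0.33 that did not pass the test (adjusted p = 0.0596 by limma). Rplp1 differed by -0.04 and Rplp2 by -0.06 in the same comparison. In the diet comparisons Rplp0, Rplp1 and Rplp2 had log2 fold changes of -0.18, -0.27 and -0.10 in WT and 0.07, -0.20 and -0.08 in Klrk1-/- mice, none of which passed. On equal totals Rplp0 rose in Klrk1-/- mice on SSD by 0.33 (adjusted p = 0.027).

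Rps6, the substrate of S6 kinase in the small subunit, was between 2770 and 3751 in all mice and was not called in any comparison. Rpl5 and Rpl11 bind 5S rRNA and can hold Mdm2, the ligase of p53. Rpl11 fell in Klrk1-/- mice on SSD by 0.38 (adjusted p = 0.0181), a call lost without mouse 1 or 3 on SSD and on equal totals, whereas Rpl5 had 0.09 (adjusted p = 0.434) and rose on equal totals by 0.35 (adjusted p = 0.0137). Rps19, the gene most often mutated in Diamond-Blackfan anemia, had log2 fold changes of -0.04 in WT and -0.03 in Klrk1-/- mice on SSD. Rps27 and its paralog Rps27l, a p53 target, had -0.34 and -0.26 in WT and -0.39 and -0.30 in Klrk1-/- mice, of which those of Rps27 passed (adjusted p = 0.046 and 0.0229). On equal totals the value of Rps27 in WT mice was 0.0036, and its call was lost without WT mouse 1, 3 or 5 on NCD or mouse 2, 3, 4 or 5 on SSD, and in Klrk1-/- mice without mouse 1 or 3 on SSD. Rpl36a and Rpl36al, which encode nearly the same protein, had -0.17 and -0.24 in WT and -0.13 and -0.12 in Klrk1-/- mice, and neither was called.

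Genes were also split by the tract at the start. In WT mice the 14 genes with one had a median of -0.253 (3 called) and the 50 tested genes with an entry but no tract -0.203 (5 called). In Klrk1-/- mice the medians were -0.279 (6 called) and -0.208 (17 called). No tract here means none exactly at the annotated start. A run that begins within 5 bases of it was found in 31 of the 67 genes with an entry, so the second set holds some of these genes. The difference between both sets was not tested. Across the 87 genes, the Spearman correlation of the fold change with gene model length was 0.188 and 0.284 in the diet comparisons of WT and Klrk1-/- mice, and -0.437 and -0.355 for Klrk1-/- against WT mice on SSD and NCD. Over all genes tested the same correlations were 0.151, 0.136, -0.119 and -0.064. These are descriptions across genes, which share libraries.

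Genes for ribosomal proteins serve as reference genes in PCR, and their spread was therefore compared. Over the 16 mice the coefficient of variation of the normalized count had a median of 14.82%. It was lowest for Rpl8 (6.406%), Rpl10a (8.183%) and Rpl6 (8.313%). Frequently used references were higher, with 12.50% for Rplp0, 16.10% for Rpl19, 16.63% for Rpl32, 19.92% for Rps18 and 20.60% for Rpl13a. On equal totals, these were 16.76% for Rplp0, 11.58% for Rpl19, 12.44% for Rpl32, 13.79% for Rps18 and 15.43% for Rpl13a, so that Rplp0 changed from the lowest of the 5 to the highest with the scale. Rpl8 was lowest on that scale too (9.283%), whereas Rpl6 (12.37%) and Rpl10a (13.31%) were above Rpl19 there. Within groups the median coefficient was 5.38% in Klrk1-/- mice on NCD, 11.98% in WT mice on SSD, 12.29% in Klrk1-/- mice on SSD and 14.67% in WT mice on NCD.

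With group means taken off, most genes moved together from mouse to mouse. Their Pearson r with the mean of the other 86 had a median of 0.895 over 16 mice, and 57 of 87 were over 0.8, with Rps18, Rpl32 and Rpl17 at the top. For 5 genes r was under 0.3, namely Rpl7l1 (-0.071), Rpl4 (0.087), Rps23rg1 (0.1), Rpl3 (0.122) and Rps4x (0.17). Rpl3 and Rpl4 are proteins of the large subunit, and Rps4x is one of the small subunit. Outside the family, the genes that followed its mean most closely were Atp6v1g1 (r = 0.968), Eif3h (0.963), Gm45713 (0.962), Swi5 (0.962) and Gng5 (0.958). Without taking the group means off they were Atp6v1g1 (0.984), Gm45713 (0.969), Ttc32 (0.958), Eif3h (0.955) and Snrpd2 (0.952). Gm45713 overlaps Rpl13a in the annotation, so that they may share reads. The other 6 have gene models of 730 to 1327 bases. All points share library, depth and scaling.

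**Figure D5:**
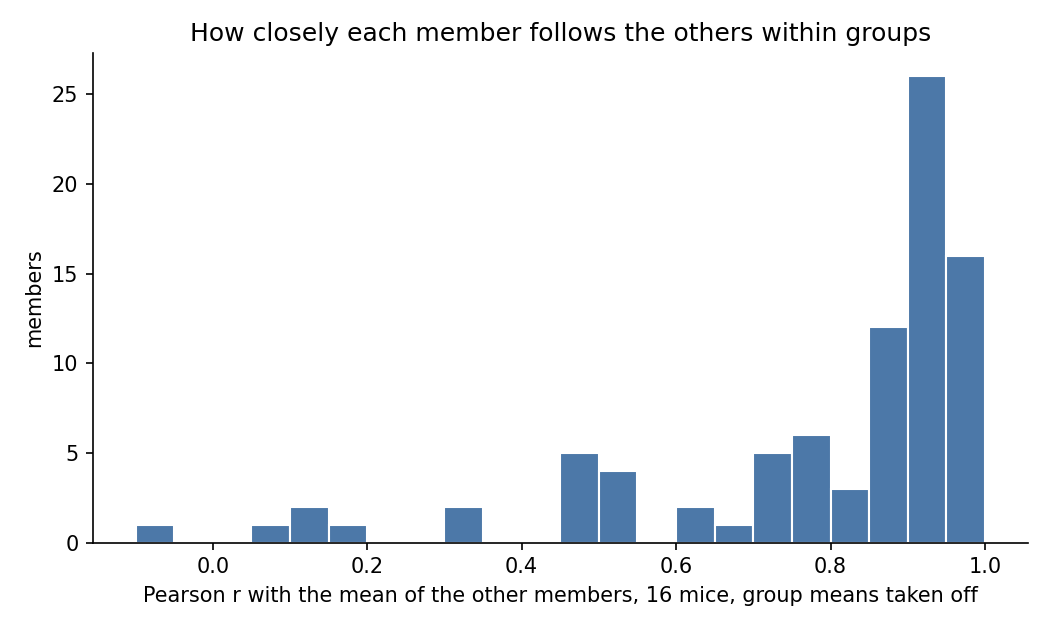
Number of ribosomal protein genes by the Pearson r of their log2 normalized count with the mean of the other tested ribosomal protein genes, over 16 mice with group means taken off. The median is 0.895, and 5 genes from -0.071 to 0.17 form the left end.

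The machinery around the ribosome was described from lists of genes, and each count is to be read beside the share of all genes called. On SSD, 17.3% of all genes were called higher and 17.6% lower in WT mice and 13.4% and 16% in Klrk1-/- mice, and on equal totals 48.1% and 37.5% were called higher, respectively. Fau, which encodes a ribosomal protein fused to a ubiquitin-like protein and lies outside the name rule, fell in WT mice on SSD by 0.41 (adjusted p = 0.0133) and in Klrk1-/- mice by 0.28 (adjusted p = 0.0156). On equal totals neither call remained. Rack1 did not pass. Among 30 ribosome biogenesis factors, 13 fell and Gnl3, a nucleolar GTPase, rose in WT mice on SSD (median -0.243), whereas on equal totals 6 rose and 0 fell. Rrp12, an export factor of both subunits, fell by 0.58, Bysl, needed for the small subunit, by 0.52, and Nolc1, a nucleolar chaperone, by 0.50. In Klrk1-/- mice on SSD 2 of the 30 rose and 2 fell, against 11 and 0 on equal totals. On NCD, 7 were lower and 0 higher in Klrk1-/- than in WT mice, against 6.66% and 6.41% of all genes. They included Rrp12 (-0.74), Nolc1 (-0.69), Tsr1 (-0.63) and Bop1 (-0.61), and 5 of the 7 were also called on equal totals. Of 14 tested subunits and factors of RNA polymerase I, which makes rRNA, 1 rose and 2 fell on SSD in each genotype, 0 changed between genotypes, and on equal totals 4 rose and 0 fell on SSD in each genotype.

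Of 25 regulators of TOP mRNAs or ribosomal protein genes, 4 rose and 3 fell in WT mice and 4 rose and 2 fell in Klrk1-/- mice on SSD. On equal totals 15 rose and 1 fell in WT mice, and 12 rose and 2 fell in Klrk1-/- mice. Sesn2, an inhibitor of mTORC1 that senses leucine, rose by 1.32 in WT (adjusted p = 3.23e-06) and by 0.91 in Klrk1-/- mice. Eif4ebp1, a repressor of cap-dependent translation, rose by 0.69 and 0.62, and Mtor itself by 0.30 and 0.41. Larp1, the TOP-binding protein, fell by 0.34 in WT mice (adjusted p = 0.0125), which on equal totals was 0.01. Eef2k, the kinase of elongation factor 2, fell by 0.74 in WT mice on SSD, and in Klrk1-/- mice on NCD it was lower than in WT mice by 0.55. Ddit4, an inhibitor of mTORC1, fell by 1.97 and Mycn fell by 2.22 in Klrk1-/- mice on SSD. In WT mice they had -0.94 and -0.46 (adjusted p = 0.0849 and 0.391), and the difference between genotypes did not pass in the interaction term (adjusted p = 0.371 and 0.133). On NCD, 2 of the 25 were higher and 3 lower in Klrk1-/- than in WT mice, against 6.41% and 6.66% of all genes. On equal totals these counts were 1 and 3, against 4.39% and 6.3%. Myc, which drives ribosome production, was lower in Klrk1-/- mice on NCD (-1.80, SE 0.51, adjusted p = 0.0375) and Tsc1, an mTORC1 inhibitor, was higher (0.89, SE 0.12, adjusted p = 0.00102). The others called were Mnt (0.38), Larp1b (-0.36) and Eef2k. Sesn2, Eif4ebp1, Mtor, Ddit4, Mycn, Eef2k, Myc and Tsc1 were also called on equal totals in these comparisons. Of 19 further genes with TOP mRNAs, mostly translation factors, the histone chaperone gene Nap1l1 rose on SSD in WT mice (0.31, adjusted p = 0.0273) and in Klrk1-/- mice (0.27, adjusted p = 0.0404). Hnrnpa1, an RNA-binding protein, fell in Klrk1-/- mice (-0.34, adjusted p = 0.0249 by limma), which on equal totals was -0.08 (adjusted p = 0.576). On NCD, Hnrnpa1 was higher in Klrk1-/- than in WT mice (0.52, adjusted p = 0.027 by limma), a call lost on equal totals (adjusted p = 0.0611). None of the translation factors among the 19 was called on SSD on the authors' scale, whereas on equal totals 11 of the 19 rose in WT and 10 in Klrk1-/- mice.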

How the data were processed

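Liver RNA was sequenced as 100-base single reads. The library kit is a total RNA kit in the study's methods and an mRNA kit in the labels. Per the methods, the authors checked reads with FastQC, mapped them to GRCm39 with STAR, counted them per gene of GENCODE M26 with FeatureCounts and scaled them with DESeq2. The deposited values are normalized counts, a signal in which the authors divided each library's counts by a size factor, and every value was a whole multiple of one step per library (100% whole within 0.05 reads), which returned the read counts. Shares use these reads.

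The main test was limma (3.58.1, R 4.3.3) with a trended prior on log2(normalized count + 1), for genes with a mean of at least 10 in the samples compared, Benjamini-Hochberg adjusted over all genes, two-sided, called at an adjusted p under 0.05. Only the 2 groups compared entered, and all 4 for the interaction. Fold changes are on that log2 scale. Alternatives were pseudocounts of 0.5 and 10, minimum means of 0 and 50, equal library totals, quantile normalization, edgeR 4.0.16 (TMM) and DESeq2 1.42.0 on recovered reads, a fold limit of 1.5, a replicate block, 1 model over 4 groups and leaving out each mouse. The scripts that fit across genes were tested on simulated data. The labels give no more than a number for each mouse, and p-values measure the spread between mice. Intervals and floors (3 reads) cover counting error only.

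Genes named with values were, per comparison, the 5 largest called rises and falls, paralogs with their parents, the 5 highest per kilobase, members of known role and rows that are no ribosomal protein. Markers, lists and members were chosen with earlier results of these data known. Promoter windows are from RefSeq (GRCm38.p6), biotypes and overlaps from GENCODE M39. Fold limits applied by the authors were not used as the main call because these genes are abundant and vary little.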

Additional observations from a re-analysis of the deposited data

Results flagged for a closer look

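In groups of 4 or 5 mice, a mouse far from the others was found in 6 of 114 tests, and chance gives about 1 in 20. Each test took a named gene, the share of reads or the summed normalized counts in a group. Rpl10-ps3 was at 170.4 normalized counts in Klrk1-/- mouse 3 on NCD, against 104.5 to 114.4 in the other mice of its group. Rpl22l1 was at 985.3 in WT mouse 1 on NCD, against 800.3 to 827.6. Rpl36a was at 2011 in WT mouse 2 on NCD, against 2607 to 2727. Rpl39 was at 2248 in Klrk1-/- mouse 1 on NCD, against 2038 to 2066. Rpl41, which encodes the shortest ribosomal protein, was at 6219 in WT mouse 1 on NCD, against 3820 to 4196. Rps27 was at 2670 in WT mouse 3 on SSD, against 3356 to 3461.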

How the results depend on the processing

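On equal totals the calls of ribosomal protein genes turned to 10 (9 higher) in WT mice and 11 (8 higher) in Klrk1-/- mice on SSD, against 53.6% and 43.8% of all genes. The medians turned to 0.143 and 0.03, and Rps27 in WT mice to 0.00359. Quantile normalization gave 6, 11 and 9 calls for diet in WT, diet in Klrk1-/- mice and genotype on NCD, against 31.4%, 28.6% and 13.8% of all genes. Its median in WT mice was 0.015. DESeq2 gave 17 calls for diet in WT mice and 9 for genotype on NCD, against 37.7% and 17.4% of all genes. The fold limit left 2, 3 and 1 calls, against 19.3%, 13.1% and 5.79%. One model over 4 groups gave 18 and 11 for diet, against 41.1% and 24% of all genes called, and 3 for genotype on NCD, against 15.3% (Rps28 higher, Rplp0 and Rpl7l1 lower, a reversed majority). Without a minimum mean, genotype on NCD had 2 calls, against 8.08% of all genes. Without mitochondrially encoded genes the share was 1.548% in WT on NCD, 1.682% in WT on SSD, 1.724% in Klrk1-/- on NCD and 1.681% in Klrk1-/- on SSD, and without the 20 largest rows 2.003%, 2.079%, 2.258% and 2.109% in the order WT on NCD and SSD, Klrk1-/- on NCD and SSD. The cause of these moves was not tested.

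Whether same-numbered mice belong together is not given in the labels. Of 20 correlations of their deviations, from -0.316 to 0.246, 4 were over 0.1. Differently numbered mice were not correlated for comparison, so these values do not decide whether the mice were paired. A replicate block gave 9 calls for diet in WT mice, 17 for diet in Klrk1-/- mice, 9 for genotype on NCD and 1 (Rpl36, higher in Klrk1-/- mice) on SSD, against 22.7%, 24.9%, 18.4% and 5.41% of all genes.

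Leaving out 1 mouse gave 3 to 27 calls for diet in WT mice, 8 to 49 in Klrk1-/- mice, 0 to 11 for genotype on NCD and 0 for genotype on SSD and for the interaction. Of all genes, 27.5% to 34.2%, 18.6% to 28.4%, 5.59% to 17.1%, 0.342% to 5.49% and 0.283% to 1.43% were called in the same order. The medians ranged from -0.298 to -0.124, from -0.306 to -0.15, from 0.049 to 0.234, from 0.031 to 0.216 and from -0.085 to 0.088 in the same order. The share ranged from 1.361% to 1.458%, 1.486% to 1.633%, 1.463% to 1.512% and 1.473% to 1.598% in the order of groups above. Of the single named genes called, 135 of 204 such tests kept the call and 0 changed sign. Pseudocounts of 0.5 and 10 kept all 26 of these calls. Depth limits mainly the copies with few reads, such as Rps18-ps5 and Rps27rt.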
